A study of Rattus norvegicus with 16 samples.

Results

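Genes of sterol and fatty acid synthesis, 41 in all, were followed in kidney RNA of 16 male inbred Sprague Dawley rats. They were taken by gene symbol from a table of 35849 genes, and each of the 41 was present once and passed the filter on low counts in every comparison. By role they comprised 3 regulators, 7 enzymes of the isoprenoid steps, 11 enzymes that lead from squalene to cholesterol, 1 sterol carrier, 10 genes of fatty acid synthesis and desaturation, 4 genes of glycerolipid assembly and 5 genes of the liver X receptor (LXR) and sterol efflux. There were 4 rats in each of 4 groups, all aged 6 to 8 weeks at the start. The normal group, whose treatment label reads sham, had an injection of citrate buffer and a normal diet. The DN (diabetic nephropathy) group had a single dose of streptozotocin (STZ), a toxin of the insulin-producing beta cells, at 45 mg/kg. Only rats above 16.7 mmol/L blood glucose 1 week later were kept, and they ate a diet high in glucose and fat. Both SIN groups shared the STZ and the diet with the DN group and also received sinomenine (SIN), a plant alkaloid, by gavage at 20 or 40 mg/kg a day for 8 weeks. STZ and the diet always came together, so their parts in a difference from the normal group cannot be told apart. Nothing but the group distinguishes the rats in the labels, and the library serial numbers run consecutively within each group, so a library batch and the group cannot be told apart either.

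Cells make cholesterol from acetyl-CoA through mevalonate, farnesyl diphosphate and squalene, and fatty acids from the same acetyl-CoA through malonyl-CoA. The membrane-bound transcription factors SREBP-1 and SREBP-2, encoded by Srebf1 and Srebf2, switch on these enzymes, SREBP-2 mainly those of sterol synthesis and SREBP-1 mainly those of fatty acid synthesis, and Insig proteins hold both in the endoplasmic reticulum when sterols are plentiful. LXR answers to oxidised sterols, raises Srebf1 and drives the transporters that move cholesterol out of the cell. In the kidney these routes are known for membrane lipid supply to the tubules and for lipid droplets that form in diabetes.

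Depth was alike across the groups, from 19616312 to 25217030 estimated counts per rat, and the least abundant member, Scd, had 4 counts in its lowest rat and 85 in its highest. Levels are given as CPM, a gene's counts relative to its library's total after edgeR's TMM scaling of that total, and levels of different genes are compared only as CPM per kilobase of the length that the table lists. Summed CPM of 6 proximal tubule markers ran from 6716 to 12694 and of 6 distal nephron markers from 2991 to 5654 over the 16 rats, as the kidney label implies. The DN rat of replicate 1 held the highest level of its group for 25 of the 41 members and SIN (20 mg/kg) replicate 4 for 22, more than the other 14 rats (3 to 17), and calls that are lost without a rat are given with the result.

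In the normal kidney the members spanned a wide range of levels per kilobase. Me1, malic enzyme, which supplies NADPH for fatty acid synthesis, stood highest at 68.6 ± 4.76 CPM per kilobase (SD, n = 4), above the range of every other member. Fads2, a fatty acid desaturase, followed at 51.8 ± 9.81, Nr1h3, which encodes LXR alpha, at 41.03 ± 6.42, and Fdft1, squalene synthase, at 39.5 ± 4.95. Over the normal rats the range of Nr1h3 overlapped with those of Fads2 and Fdft1. At the low end Scd, a stearoyl-CoA desaturase, stood at 0.150 ± 0.110, below Abca1, the main cholesterol exporter, at 1.39 ± 0.199 and Hsd17b7, a sterol ketoreductase, at 1.64 ± 0.233 CPM per kilobase. Of the 40 neighbouring pairs in the order, 36 overlapped in range and 4 did not, so most of the order is not resolved by 4 rats. Among the sterol enzymes the level per kilobase did not fall or rise steadily along the route. Fdps, farnesyl diphosphate synthase, at 31.9 ± 3.80 and Fdft1 were high, whereas Mvk, mevalonate kinase, at 3.58 ± 0.444, Idi1, an isopentenyl diphosphate isomerase, at 3.30 ± 1.37 and Hsd17b7 were low. The desaturases Scd and Scd2 were far apart, Scd2 standing at 14.4 ± 2.69 CPM per kilobase. Scd, Acat2 and Fads2 have near copies in the table (Scd2 and Scd4, Acat2l1, Fads2l1), so reads may have been split between copies and these values are less certain.

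**Figure D1:**
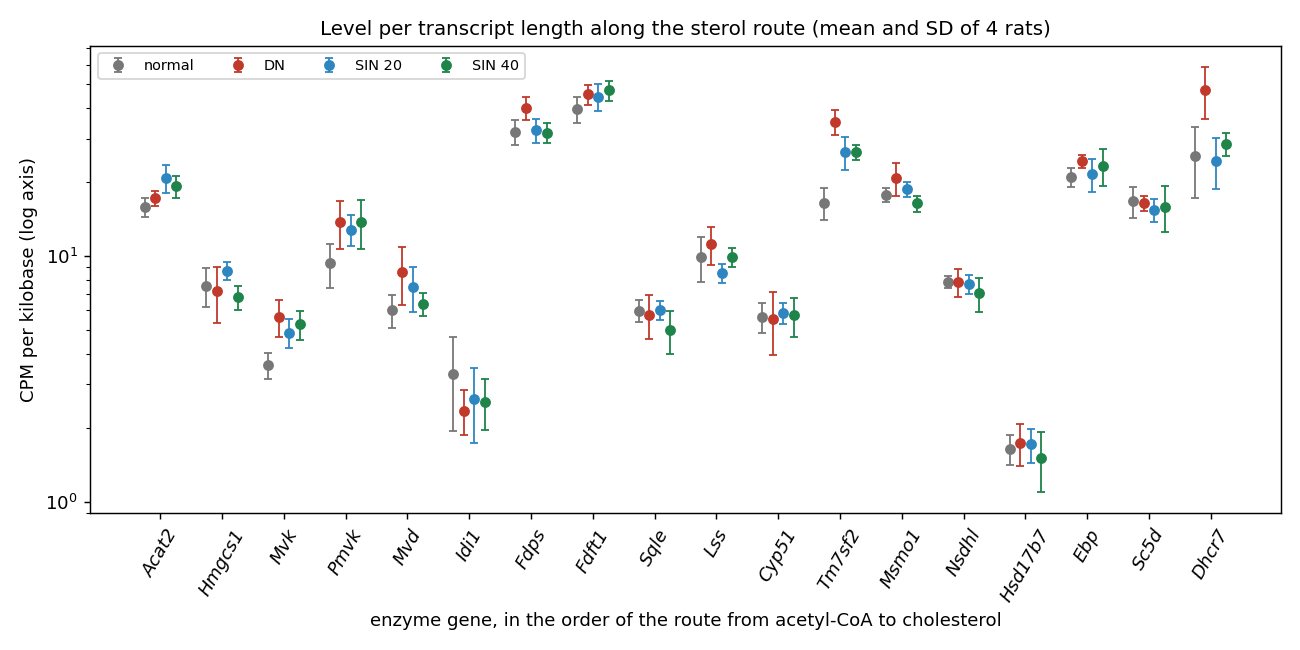
CPM per kilobase (vertical log axis) of the 18 enzyme genes from acetyl-CoA to cholesterol in route order, with points and bars for the mean and SD of 4 rats in each group. Fdft1 and Fdps stand among the highest and Hsd17b7 and Idi1 lowest in all 4 groups, and Dhcr7 is the highest of the 18 in the DN group.

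The first comparison, DN with normal, asks which members differ in the diabetic kidney. Srebf1, Abca7, Tm7sf2, Dgat2, Dhcr7, Mvk and Dgat1 rose in the DN group, by 1.30 to 2.14 fold, and Elovl6 and Stard4 fell. By edgeR's quasi-likelihood test with Benjamini-Hochberg adjustment over 15775 genes, 9 of 41 members (22%) passed an adjusted p under 0.05, 7 higher and 2 lower, beside 19.5% of all genes tested (8.74% higher and 10.8% lower). The share called was thus near that of all genes. Only Srebf1, Tm7sf2 and Elovl6 also changed by at least 2 fold, 3 of 41 beside 3.8% of all genes. At an unadjusted p under 0.05 there were 13 higher and 4 lower, 41.5% of the members beside 36.9% of all genes (17.5% higher and 19.4% lower). The CPM of the 2 groups did not overlap for 8 members that were higher and 2 that were lower in DN, beside 11.3% and 13% of all genes (24.3% in either direction). The median log2 fold change over the 41 was 0.17, with 27 positive and 14 negative, and that over all genes was 0.0016. The count of 9 was 5 when normal replicate 1, 3 or 4 or DN replicate 1 was left out. Tissue was sequenced whole, so fewer cells of a type and less RNA per cell cannot be told apart.

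**Figure D2:**
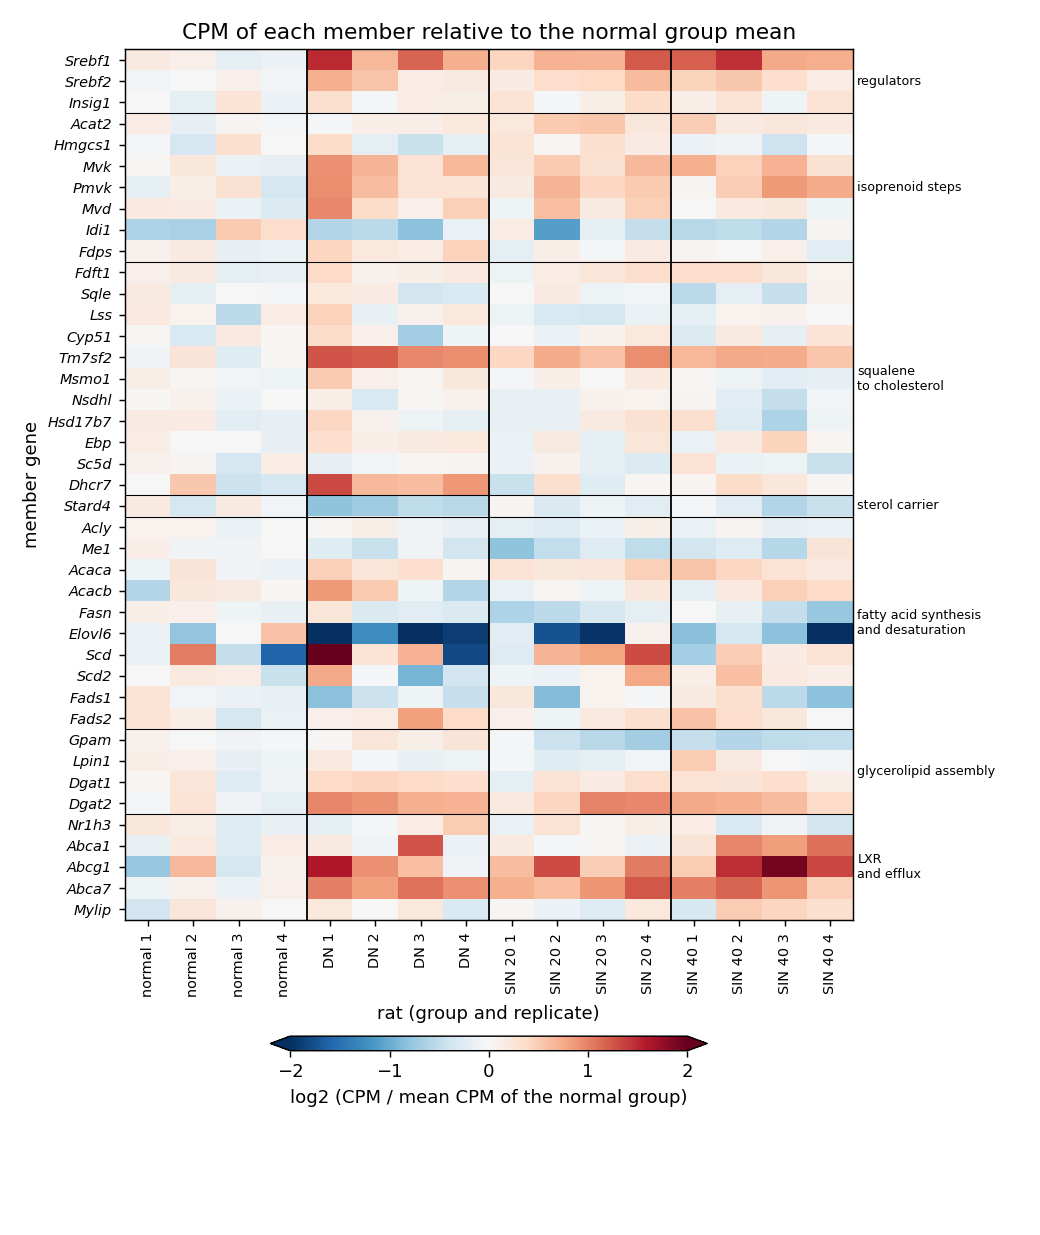
Each row is a member, each column a rat, and colour gives log2 of its CPM over the normal group mean, with the scale ending at 2 in either direction. Rows of Srebf1, Tm7sf2, Dgat2 and Abca7 are red in all 4 DN rats and Elovl6 and Stard4 are blue.

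Of the regulators, Srebf1 (ENSRNOG00000003463) measured 40.5, 38.3, 31.1 and 33.1 CPM in the normal rats and 101, 56.9, 80.5 and 58.5 in the DN rats. Every DN rat stood above every normal rat, and DN replicate 1 was the highest. The log2 fold change was 1.05 (SE 0.19), adjusted p = 0.00886. Srebf2 (ENSRNOG00000007400) measured 36.8, 38.5, 41.1 and 36.8 CPM in normal and 63.0, 56.9, 42.3 and 43.5 in DN, again without overlap, but its log2 fold change of 0.42 (SE 0.14) missed the threshold, adjusted p = 0.0544. That call turned on the processing, with adjusted p = 0.0232 by DESeq2, 0.0398 by the exact test and 0.0325 in the fit of all 16 rats, and a range from 0.0232 to 0.133 over the 15 alternatives. Insig1, the sterol-responsive anchor of both factors, measured 19.9 to 27.7 CPM in normal and 22.5 to 28.7 in DN, and these ranges overlapped.

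Of the 7 isoprenoid enzymes, 1 passed the test. Mvk (ENSRNOG00000049604), which phosphorylates mevalonate, measured 4.32, 4.98, 3.93 and 3.80 CPM in the normal rats and 8.00, 6.82, 5.21 and 6.73 in the DN rats, with a log2 fold change of 0.65 (SE 0.18) and adjusted p = 0.0353. The lowest DN rat was just above the highest normal rat. The next 2 enzymes of the route, Pmvk and Mvd, had log2 fold changes of 0.56 (SE 0.20) and 0.51 (SE 0.20) with adjusted p = 0.0736 and 0.0918, and Fdps had 0.32 (SE 0.11) with adjusted p = 0.0668. Their ranges overlapped between the groups. Hmgcs1, the synthase that makes the precursor of mevalonate, had -0.080 (SE 0.19) and Idi1 had -0.50 (SE 0.30), so the point estimates within these steps lay on both sides of 0. Acat2, the cytosolic thiolase that opens the route, measured 16.9 to 20.9 CPM in normal and 18.6 to 21.9 in DN.

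From squalene to cholesterol, 2 of 11 enzymes rose, and both reduce a double bond of the sterol skeleton. Tm7sf2 (ENSRNOG00000020989), a sterol reductase of the inner nuclear membrane and endoplasmic reticulum, measured 35.7, 44.6, 31.4 and 37.9 CPM in the normal rats and 89.0, 86.8, 72.5 and 71.4 in the DN rats. The groups stood well apart, with a log2 fold change of 1.10 (SE 0.12) and adjusted p = 0.00285. Dhcr7 (ENSRNOG00000020776), the enzyme of the last step to cholesterol, measured 70.1, 101, 51.6 and 54.9 CPM in normal and 174, 109, 107 and 127 in DN. Normal replicate 2 came close to the lowest DN rats and DN replicate 1 stood far above the others. The log2 fold change of Dhcr7 was 0.90 (SE 0.23), adjusted p = 0.0262. The other 9 (Fdft1, Sqle, Lss, Cyp51, Msmo1, Nsdhl, Hsd17b7, Ebp and Sc5d) had log2 fold changes between -0.055 and 0.23, and none passed. Stard4 (ENSRNOG00000020468), a soluble protein that carries cholesterol between membranes, moved the other way, with 18.9, 13.1, 18.9 and 16.1 CPM in normal and 9.60, 10.3, 11.8 and 11.4 in DN. All 4 DN rats were below all 4 normal rats, and the log2 fold change was -0.64 (SE 0.15), adjusted p = 0.021.

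Among the 10 genes of fatty acid synthesis and desaturation, Elovl6 alone passed. Elovl6 (ENSRNOG00000010468), which lengthens palmitate to stearate, measured 3.80, 2.39, 4.10 and 6.14 CPM in the normal rats and 0.973, 1.72, 0.770 and 1.11 in the DN rats, a log2 fold change of -1.85 (SE 0.36) with adjusted p = 0.012. It is one of the least abundant members, with 16 to 139 counts per rat, and the groups did not overlap. Fasn, fatty acid synthase, measured 82.7, 81.7, 72.0 and 69.2 CPM in normal and 89.9, 62.8, 65.0 and 62.7 in DN, so that 3 of the DN rats lay below all normal rats and DN replicate 1 above them, with a log2 fold change of -0.12 (SE 0.13). Acaca, which makes malonyl-CoA, had 0.29 (SE 0.12) with adjusted p = 0.124, Me1 had -0.27 (SE 0.10) with adjusted p = 0.083 and Fads1 had -0.43 (SE 0.15) with adjusted p = 0.0753. The remaining log2 fold changes were -0.017 (SE 0.089) for Acly, 0.28 (SE 0.29) for Acacb, 0.39 (SE 0.18) for Fads2, -0.018 (SE 0.31) for Scd2 and 1.14 (SE 0.79) for Scd. The DN rats spread widely in both desaturases, from 38.4 to 123 CPM for Scd2 and from 0.192 to 3.76 for Scd.

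In glycerolipid assembly both acyltransferases of the last step to triglyceride rose. Dgat2 (ENSRNOG00000016573) measured 53.6, 66.3, 52.2 and 48.3 CPM in the normal rats and 108, 102, 89.8 and 89.5 in the DN rats, with a log2 fold change of 0.82 (SE 0.11) and adjusted p = 0.00457. Dgat1 (ENSRNOG00000028711) measured 40.1, 46.0, 32.5 and 37.0 CPM in normal and 50.5, 52.3, 50.8 and 49.3 in DN, with 0.38 (SE 0.10) and adjusted p = 0.0331. The 4 DN values of Dgat1 lay within a narrow band just above the highest normal rat. Gpam, the mitochondrial acyltransferase that opens the route, had 0.16 (SE 0.084) and Lpin1, a phosphatidate phosphatase, had -0.020 (SE 0.13), and neither passed.

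Of the LXR and efflux genes, Abca7 rose. Abca7 (ENSRNOG00000012939), an ABC transporter that moves phospholipid and is known for its part in phagocytosis, measured 41.01, 46.1, 40.3 and 46.5 CPM in the normal rats and 87.2, 77.1, 92.8 and 81.9 in the DN rats, a log2 fold change of 0.96 (SE 0.092). Its adjusted p of 0.00156 was the smallest of the 41. Abcg1, the sterol exporter to larger lipoproteins, measured 9.10, 24.2, 12.2 and 16.3 CPM in normal and 46.8, 29.3, 23.5 and 14.8 in DN, overlapping, with 0.89 (SE 0.37) and adjusted p = 0.111. Abca1 measured 13.0, 16.3, 12.2 and 15.9 CPM in normal and 16.2, 13.6, 34.1 and 13.3 in DN, where replicate 3 stood alone above the others. Nr1h3 had a log2 fold change of 0.13 (SE 0.16) and Mylip, a ubiquitin ligase that LXR induces, had 0.047 (SE 0.16).

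Abca7, Tm7sf2, Dgat2, Srebf1 and Elovl6 remained called under all 15 alternatives of processing or left-out rats, with adjusted p from 2.69e-17 to 0.0199 for Abca7 and from 4.23e-05 to 0.0467 for Elovl6. The calls of Dgat1, Dhcr7, Mvk and Stard4 were lost under 7, 4, 8 and 6 of the 15, with adjusted p up to 0.0963, 0.0809, 0.103 and 0.0645. With normal replicate 1, 3 or 4 or DN replicate 1 left out, none of these 4 was called. Dgat1 was also lost without DN replicate 2 or 3, Mvk without DN replicate 2 or 4 and Stard4 without DN replicate 2. The replicate block lost Dgat1, Mvk and Stard4, and the fit without a filter lost Mvk.

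**Figure D3:**
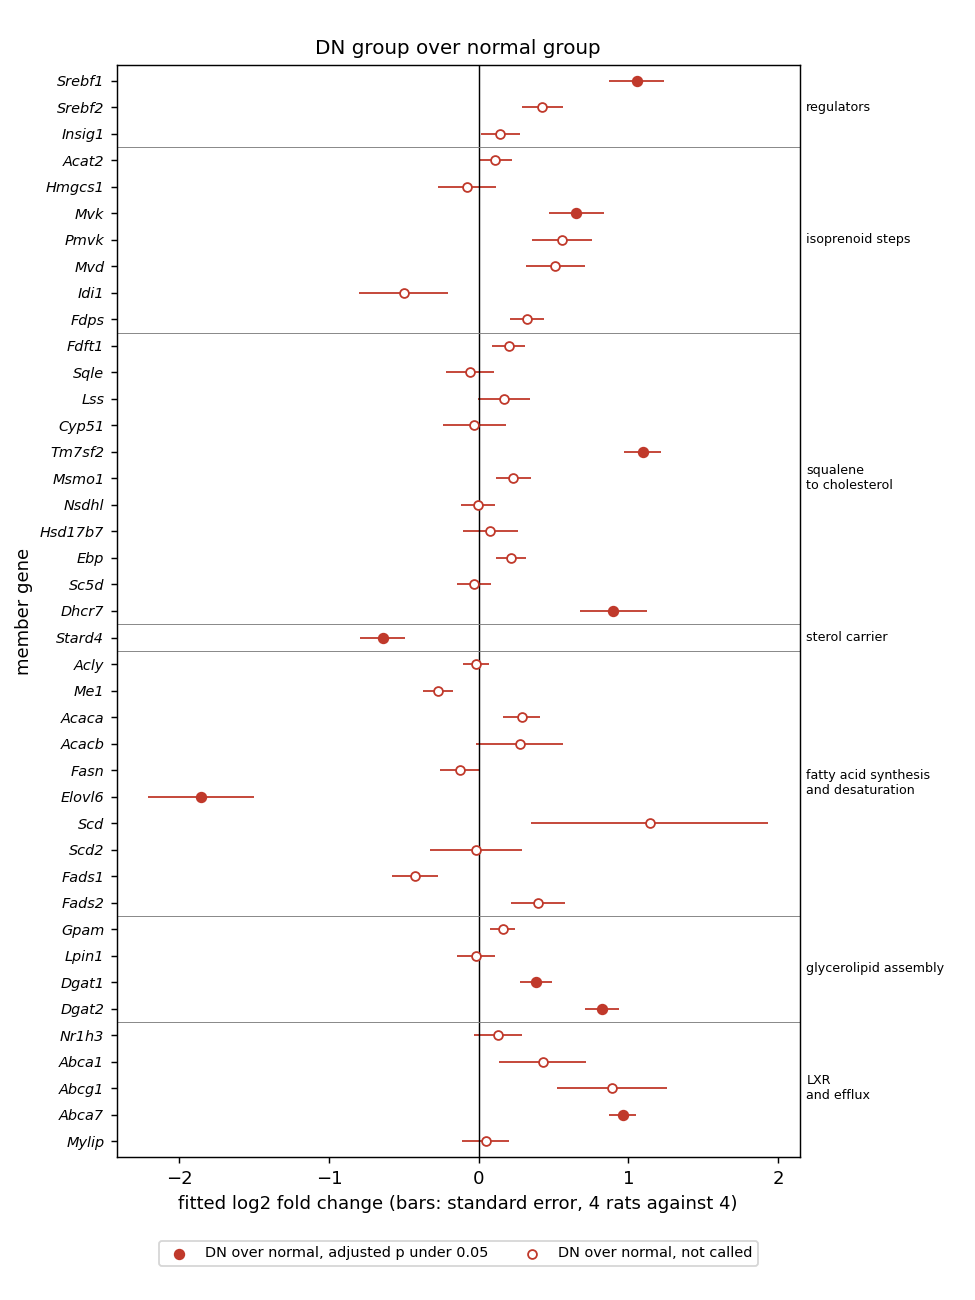
Fitted log2 fold change of the DN over the normal group (horizontal axis) for each member, grouped by role, with bars for the standard error over 4 rats against 4 and filled points for adjusted p under 0.05. The 9 filled points are Srebf1, Mvk, Tm7sf2, Dhcr7, Stard4, Elovl6, Dgat1, Dgat2 and Abca7.

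Promoters are shown for the members that passed in DN and had an entry, all of which rose, and for Gpam, which was not called in DN. They are the sequences in which motifs shared by members that rose together can be read. Stard4, Elovl6, Dgat1 and Dgat2 passed but could not be shown. RefSeq (assembly GRCr8) gave a promoter, 250 bases before to 50 after a gene's start, for 31 of the 41 members. Pmvk, Fdft1, Sqle, Stard4, Acaca, Fasn, Elovl6, Dgat1, Dgat2 and Abcg1 had no entry. Capitals mark CCAAT or its complement ATTGG, the site of NF-Y, and GGGCGG or its complement CCGCCC, the site of Sp1, both known partners of SREBP. Srebf1 has 2 entries on the minus strand, at chr10:45529115-45529414 and chr10:45518961-45519260. Mvk lies at chr12:47819454-47819753 on the minus strand, Tm7sf2 at chr1:212789492-212789791 on the minus strand, Dhcr7 at chr1:208444184-208444483 on the plus strand, Abca7 at chr7:10361940-10362239 on the minus strand and Gpam at chr1:264175862-264176161 on the minus strand, each written 5′ to 3′ along its gene.
Srebf1, first entry: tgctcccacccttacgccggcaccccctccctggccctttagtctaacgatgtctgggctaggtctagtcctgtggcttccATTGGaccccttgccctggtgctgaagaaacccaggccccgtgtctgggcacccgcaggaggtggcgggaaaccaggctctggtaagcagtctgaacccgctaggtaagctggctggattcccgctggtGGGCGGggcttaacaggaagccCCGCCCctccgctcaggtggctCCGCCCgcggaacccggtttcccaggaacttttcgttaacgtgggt
Srebf1, other entry: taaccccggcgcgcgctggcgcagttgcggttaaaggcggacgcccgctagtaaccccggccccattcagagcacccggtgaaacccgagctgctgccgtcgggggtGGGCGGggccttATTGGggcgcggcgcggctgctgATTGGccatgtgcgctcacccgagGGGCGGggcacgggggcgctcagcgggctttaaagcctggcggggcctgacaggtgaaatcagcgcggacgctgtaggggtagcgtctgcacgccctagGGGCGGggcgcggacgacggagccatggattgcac
Mvk: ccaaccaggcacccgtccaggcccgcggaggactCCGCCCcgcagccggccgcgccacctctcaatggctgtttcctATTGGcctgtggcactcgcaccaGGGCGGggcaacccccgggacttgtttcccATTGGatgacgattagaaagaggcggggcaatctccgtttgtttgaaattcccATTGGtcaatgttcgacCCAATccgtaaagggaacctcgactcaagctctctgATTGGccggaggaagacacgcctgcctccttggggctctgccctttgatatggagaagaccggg
Tm7sf2: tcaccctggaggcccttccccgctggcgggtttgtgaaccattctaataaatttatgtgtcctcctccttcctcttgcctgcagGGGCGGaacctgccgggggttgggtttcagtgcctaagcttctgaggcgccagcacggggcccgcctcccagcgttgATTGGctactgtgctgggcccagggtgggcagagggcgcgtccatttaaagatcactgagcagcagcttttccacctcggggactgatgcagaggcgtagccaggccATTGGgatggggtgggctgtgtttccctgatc
Dhcr7: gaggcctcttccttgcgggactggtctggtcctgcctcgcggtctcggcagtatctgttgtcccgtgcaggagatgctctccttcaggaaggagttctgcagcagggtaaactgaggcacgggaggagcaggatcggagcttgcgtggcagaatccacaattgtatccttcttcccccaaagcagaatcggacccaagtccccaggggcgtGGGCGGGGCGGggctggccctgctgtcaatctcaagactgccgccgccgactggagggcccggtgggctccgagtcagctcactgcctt
Abca7: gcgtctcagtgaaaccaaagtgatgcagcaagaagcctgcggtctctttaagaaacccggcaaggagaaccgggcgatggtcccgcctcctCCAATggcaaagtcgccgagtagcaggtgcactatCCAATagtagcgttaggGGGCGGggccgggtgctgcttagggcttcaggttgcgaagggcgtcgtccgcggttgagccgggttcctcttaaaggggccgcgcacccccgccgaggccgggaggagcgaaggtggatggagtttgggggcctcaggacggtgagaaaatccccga
Gpam: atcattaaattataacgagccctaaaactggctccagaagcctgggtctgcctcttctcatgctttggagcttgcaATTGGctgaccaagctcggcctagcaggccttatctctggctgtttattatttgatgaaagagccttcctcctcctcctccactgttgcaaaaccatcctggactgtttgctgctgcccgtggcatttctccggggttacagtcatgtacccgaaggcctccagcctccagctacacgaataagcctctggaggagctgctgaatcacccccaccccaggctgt

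Both strands were searched for 4 motifs. Members and tested genes were counted once per gene, by a match in any of its entries, whereas all promoters were counted entry by entry. CCAAT was found in 23 of the 31 member promoters (74.2%), beside 38.7% of the promoters of 10319 genes tested in DN against normal and 37.5% of all 33469 promoters. GGGCGG was also found in 23 of 31 (74.2%), beside 62.7% of tested genes and 33.1% of all promoters. Mvk held 5 CCAAT matches, the nearest 14 bases before the start, and 2 GGGCGG matches. Dhcr7 held no CCAAT and 2 overlapping GGGCGG matches, 39 and 34 bases before the start, and Gpam held a single CCAAT match 174 bases before the start. One form of the sterol regulatory element, TCACNCCAC, was found in 0 of 31 member promoters and in 1.14% of tested genes. The E-box CACGTG, to which clock factors and others bind, was found in 3 of 31, those of Insig1, Sc5d and Abca1 (9.68%), beside 9.67% of tested genes. A match is only a run of letters in this window, and binding was not measured.

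Lists of markers for other cell types and of clock genes were read beside the members. The summed CPM of 10 adipocyte markers was 70.7 to 88.0 in normal, 98.4 to 161 in DN, 118 to 194 in low-dose SIN and 78.7 to 197 in high-dose SIN rats. In DN against normal 2 of the 7 tested were called (28.6% beside 19.5% of all genes), the lipid droplet proteins Cidec and Cidea, both higher. Cidec measured 52.8, 56.6, 53.0 and 57.2 CPM in the normal rats and 93.8, 118, 85.6 and 72.8 in the DN rats, the largest share of the sum in each of these 8 rats. The hormone gene Adipoq ran from 5.89 to 11.9 CPM in normal and 5.97 to 13.2 in DN, and Fabp4, a fatty acid carrier, from 9.65 to 15.9 and 7.26 to 22.2, so that the groups overlapped in both. Plin1, the adipocyte coat protein of lipid droplets, was 0.575, 0.0505, 10.1 and 1.25 CPM in the DN rats and 2.35, 0.244, 0.175 and 0.177 in the normal rats, and Lep, Retn and Ucp1 were near 0 in most rats. Without DN replicate 3, the DN rat with the highest Plin1, 11 members were called in place of 9. Of the 8 clock genes tested in DN against normal, 4 were called higher and 3 lower (87.5% beside 19.5% of all genes). Dbp, an output of the clock, ran from 20.4 to 43.9 CPM in normal, 72.6 to 145 in DN, 95.6 to 211 at 20 mg/kg and 149 to 223 at 40 mg/kg. Arntl, a core activator of the clock, ran the other way, from 32.6 to 43.8 CPM in normal, 10.3 to 20.3 in DN, 2.42 to 6.50 at 20 mg/kg and 4.85 to 7.51 at 40 mg/kg. Sums of 9 leukocyte markers were 271 to 622 CPM in normal and 399.9 to 499.9 in DN, with 1 of 8 tested called lower, and those of 4 adrenal cortex markers were at most 3.22 in any rat. The 5 podocyte and endothelial markers in the table summed to 488 to 610.4 CPM in normal and 351 to 596 in DN. Umod, uromodulin of the thick ascending limb, was the 1 distal marker called, with 2943, 3624, 3142 and 3446 CPM in normal and 2300.4, 2267, 1635 and 1523 in DN. The part of cell makeup or of the clock in the members' values was not tested.

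The comparisons of each SIN group with DN ask whether SIN moved these genes in the diabetic kidney. No member passed the adjusted threshold at either dose by the quasi-likelihood test, and neither did any other gene (0% of 15724 and of 15530 genes). At 20 mg/kg, 8 members had an unadjusted p under 0.05, 3 higher and 5 lower (19.5% beside 15.4% of all genes, 9.2% higher and 6.24% lower). At 40 mg/kg there were 6, 1 higher and 5 lower (14.6% beside 17.1%, 9.9% higher and 7.21% lower). The CPM of the groups did not overlap for 4 members at 20 mg/kg, 2 higher and 2 lower, beside 8.86% of all genes (4.87% higher and 3.99% lower). At 40 mg/kg they did not overlap for 5 members, all lower, beside 10.7% (5.76% higher and 4.91% lower). By DESeq2, 3 members were called at each dose (beside 1.7% and 3.25% of the genes it tested), and by edgeR's exact test 1 and 2 (beside 0.566% and 1.02%). The fit of all 16 rats called 0 members at 20 mg/kg (beside 0.0792%) and Gpam alone at 40 mg/kg (beside 0.0488%). The median log2 fold change over the members was -0.092 at 20 mg/kg and -0.042 at 40 mg/kg, and over all genes it was -0.0074 and 0.0067. The 2 SIN groups were compared with the same DN rats, so their values below are not independent of each other. Those DN rats also gave the calls against normal. For a member called there, an opposite difference here is thus not independent of that call.

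Dhcr7, which had risen in DN, measured 50.7, 86.3, 58.6 and 71.1 CPM at 20 mg/kg and 71.8, 89.1, 80.9 and 70.9 at 40 mg/kg, all below the lowest DN rat. Its log2 fold change over DN was -0.95 (SE 0.20) at 20 mg/kg and -0.71 (SE 0.16) at 40 mg/kg, with adjusted p = 0.27 and 0.175. DESeq2 and the exact test called it at both doses, and its adjusted p ran from 0.0022 to 0.544 over the 15 alternatives at 20 mg/kg and from 0.00548 to 0.392 at 40 mg/kg. Tm7sf2 measured 49.7, 62.6, 56.2 and 71.5 CPM at 20 mg/kg and 59.2, 63.5, 62.7 and 54.6 at 40 mg/kg. All 8 exceeded the normal rats, and 7 lay below the DN rats, SIN (20 mg/kg) replicate 4 reaching the lowest of them. The log2 fold changes were -0.41 (SE 0.13) and -0.40 (SE 0.10) with adjusted p = 0.27 and 0.187, and DESeq2 called Tm7sf2 at 40 mg/kg, adjusted p = 0.0227. Stard4, which had fallen in DN, measured 17.4, 13.7, 15.8 and 14.3 CPM at 20 mg/kg, all above the DN rats, and 16.3, 14.3, 11.1 and 12.2 at 40 mg/kg, where replicate 3 lay within the DN range. The log2 fold changes were 0.51 (SE 0.13) and 0.34 (SE 0.15), adjusted p = 0.27 and 0.285, and DESeq2 called it at 20 mg/kg.

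Gpam (ENSRNOG00000015124), the acyltransferase that opens glycerolipid synthesis, was not called in DN against normal but had the smallest p of the members at 40 mg/kg. It measured 57.1, 54.2, 51.2 and 52.7 CPM in the normal rats, 54.8, 63.4, 58.1 and 64.5 in the DN rats, 52.2, 40.0, 36.7 and 33.4 at 20 mg/kg and 39.3, 36.0, 37.9 and 38.2 at 40 mg/kg. The 4 rats at 40 mg/kg were close together and below all normal and DN rats, and at 20 mg/kg all 4 were below the DN rats, with replicate 1 within the normal range. The log2 fold change over DN was -0.65 (SE 0.085) at 40 mg/kg, adjusted p = 0.14, and -0.57 (SE 0.14) at 20 mg/kg, adjusted p = 0.27. DESeq2 called Gpam at both doses and the exact test and the fit of all 16 rats called it at 40 mg/kg. Its adjusted p ran from 4.62e-08 to 0.392 over the alternatives at 40 mg/kg.

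Of the other sterol enzymes, Fdps had log2 fold changes over DN of -0.30 (SE 0.11) at 20 mg/kg and -0.32 (SE 0.10) at 40 mg/kg, with adjusted p = 0.29 and 0.209. Its CPM ran from 72.8 to 90.2 at 40 mg/kg, below the DN range of 93.8 to 116. Msmo1, a methylsterol monooxygenase, had -0.33 (SE 0.12) at 40 mg/kg (adjusted p = 0.237) and Lss, lanosterol synthase, had -0.39 (SE 0.13) at 20 mg/kg (adjusted p = 0.271). Within squalene to cholesterol, 9 of the 11 log2 fold changes were negative at each dose, both against the same DN rats. The median of the 11 was -0.081 at 20 mg/kg and -0.16 at 40 mg/kg, beside -0.0074 and 0.0067 over all genes. Elovl6 varied among the SIN rats, with 3.53, 1.23, 1.06 and 4.38 CPM at 20 mg/kg and 2.30, 3.23, 2.33 and 0.765 at 40 mg/kg. Of these 8 rats, 3 were below the highest DN rat, 3 were within the normal range and 2 lay between, and the log2 fold changes were 1.16 (SE 0.50) and 0.93 (SE 0.43). Srebf1 stayed near the DN level, at 61.9 ± 15.3 CPM at 20 mg/kg and 75.0 ± 18.5 at 40 mg/kg beside 74.3 ± 20.8 in DN (SD, n = 4). Abca7 at 79.9 ± 16.3 and 81.6 ± 15.9 beside 84.8 ± 6.75, and Dgat2 at 88.7 ± 23.6 and 85.2 ± 9.38 beside 97.5 ± 9.34, were also near their DN means, with a wider spread than in DN for Abca7 at both doses and for Dgat2 at 20 mg/kg. The approximate 95% interval of the log2 difference from DN was -0.69 to 0.16 at 20 mg/kg and -0.40 to 0.46 at 40 mg/kg for Srebf1. For Abca7 it was -0.36 to 0.19 and -0.31 to 0.23. Of 9 clock genes, 8 at 20 mg/kg and 7 at 40 mg/kg had an unadjusted p under 0.05 against DN, beside 15.4% and 17.1% of all genes. None of the clock genes passed the adjusted threshold. Their part in the members' values was not tested.

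**Figure D4:**
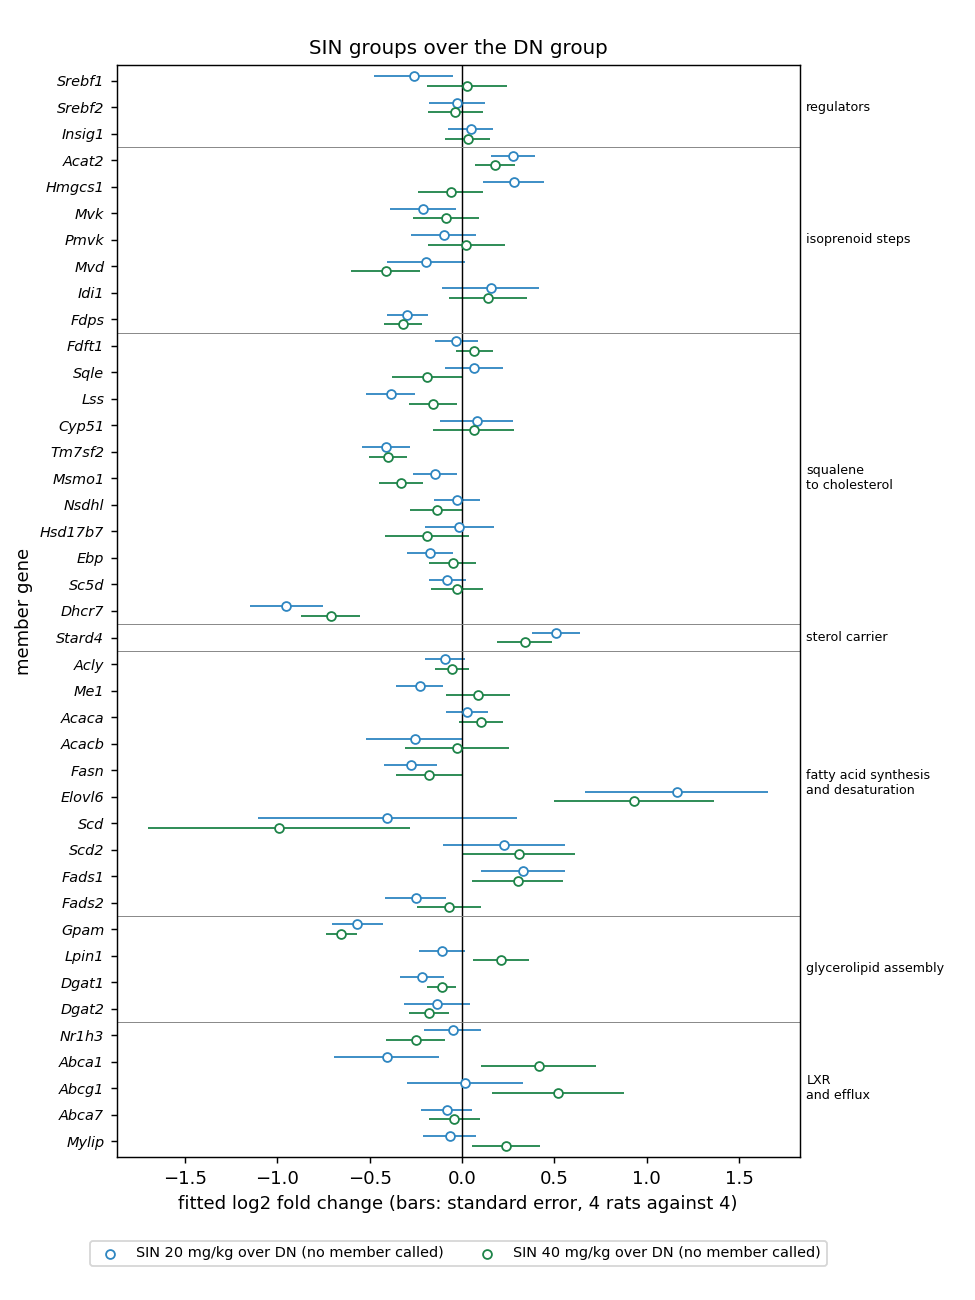
Fitted log2 fold change of each SIN group over the DN group (horizontal axis) for each member, with bars for the standard error over 4 rats against 4. All points are open because no member passed the adjusted threshold. Dhcr7, Gpam and Tm7sf2 lie left of 0 by more than 3 times their errors at both doses, and Scd and Elovl6 have the longest bars.

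No member separated the doses past the adjusted threshold. Against 20 mg/kg, 40 mg/kg gave 0 members (0.00639% of 15657 genes passed), and 1 was higher and 1 lower at an unadjusted p under 0.05 (4.88% beside 4.98%, 2.41% higher and 2.57% lower). Their CPM did not overlap for the same 2 members, beside 3.3% of all genes (1.69% higher and 1.61% lower). Abca1 was the higher, with 16.3, 14.1, 14.5 and 13.3 CPM at 20 mg/kg and 17.1, 28.3, 25.7 and 30.9 at 40 mg/kg. All 4 rats at 40 mg/kg exceeded those at 20 mg/kg, though replicate 1 only slightly, and the log2 difference was 0.81 (SE 0.17) with adjusted p = 0.961 by the quasi-likelihood test and 0.0208 by DESeq2, which called no other member (beside 0.109% of the genes it tested). Over all 15 alternatives the adjusted p of Abca1 ran from 0.0208 to 1.00. Hmgcs1 was the lower, with 29.3, 25, 30.2 and 27.3 CPM at 20 mg/kg and 22.4, 23.1, 18.2 and 23.7 at 40 mg/kg, a log2 difference of -0.35 (SE 0.12) with adjusted p = 0.961. Log2 differences of 0.22 (SE 0.10) for Lss, 0.31 (SE 0.15) for Lpin1 and -0.19 (SE 0.10) for Msmo1 came next, with overlapping ranges and adjusted p = 0.961 each. The median log2 difference over the 41 was 0.026, beside -0.0069 over all genes.

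Set against the normal group, Abca7, Tm7sf2 and Srebf1 were higher in both SIN groups, Me1 was lower at 20 mg/kg and Gpam at 40 mg/kg. At 20 mg/kg, 4 members (9.76%) passed, 3 higher and 1 lower, beside 6.36% of 15877 genes (2.77% higher and 3.58% lower). At 40 mg/kg 7 members (17.1%) passed, 6 higher and 1 lower, beside 5.97% of 15735 genes (2.28% higher and 3.69% lower). At an unadjusted p under 0.05 the counts were 10 higher and 3 lower at 20 mg/kg, beside 20.8% of all genes (10.2% higher and 10.6% lower), and 13 higher and 2 lower at 40 mg/kg, beside 22.9% (11.4% higher and 11.5% lower). Groups did not overlap for 8 members at 20 mg/kg and 9 at 40 mg/kg, beside 13.6% and 13.9%. These comparisons and that of DN share the normal rats. The count at 20 mg/kg was 2, 1 and 1 without normal replicate 1, 3 or 4, 7 without SIN (20 mg/kg) replicate 1 and 2 without SIN (20 mg/kg) replicate 2, and 9 by DESeq2 and 8 by the exact test, beside 10.9% and 9.05% of all genes.

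Of the 3 called at both doses, Abca7 had log2 fold changes over normal of 0.88 (SE 0.14) and 0.91 (SE 0.14), with adjusted p = 0.00581 and 0.00495, and kept its call under all 15 alternatives of each. Srebf1 had 0.79 (SE 0.17) and 1.08 (SE 0.17), adjusted p = 0.0205 and 0.00564, and measured 48.1, 58.1, 57.3 and 83.8 CPM at 20 mg/kg and 81.9, 98.0, 60.6 and 59.4 at 40 mg/kg. All 8 SIN rats exceeded the normal rats. Tm7sf2 had 0.68 (SE 0.14) and 0.69 (SE 0.11), adjusted p = 0.017 and 0.00629, at 20 mg/kg a call lost without normal replicate 1, 3 or 4 or SIN (20 mg/kg) replicate 2, with adjusted p up to 0.0542. That of Srebf1 at 20 mg/kg was lost without normal replicate 3 or 4, with adjusted p up to 0.0697. Dgat2 passed at 40 mg/kg, with a log2 fold change of 0.64 (SE 0.12) and adjusted p = 0.0128, at 93.2, 90.2, 85.7 and 72.0 CPM, and just missed at 20 mg/kg, with 0.69 (SE 0.18) and adjusted p = 0.0536, where replicates 1 and 2 were nearest to the normal rats at 63.3 and 73.9 CPM. Over the alternatives at 20 mg/kg its adjusted p ran from 0.00618 to 0.152.

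Me1 was the member that was lower at 20 mg/kg. It measured 129, 111, 112 and 118 CPM in the normal rats, 99.5, 86.6, 112 and 91.4 in DN, 67.4, 83.5, 98.6 and 82.4 at 20 mg/kg and 91.2, 98.0, 79.2 and 139.9 at 40 mg/kg, where replicate 4 was the highest of all 16 rats. The log2 fold change over normal was -0.50 (SE 0.12) at 20 mg/kg, adjusted p = 0.031, and -0.20 (SE 0.16) at 40 mg/kg, and the call at 20 mg/kg was lost under 7 of 15 alternatives, with adjusted p up to 0.0899. These 7 were the fit of all 16 rats, the replicate number as a block, and normal replicate 1, 3 or 4 or SIN (20 mg/kg) replicate 2 or 4 left out. Gpam was the member that was lower at 40 mg/kg, with -0.50 (SE 0.078) over normal and adjusted p = 0.00533, and kept its call under all 15 alternatives. Fasn had -0.41 (SE 0.11) at 20 mg/kg, adjusted p = 0.0613, and its 4 rats, 49.7, 53.2, 61.1 and 66.8 CPM, all lay below the normal rats.

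Both exporters that LXR drives passed at 40 mg/kg and not at 20 mg/kg. Abca1 (ENSRNOG00000018126) had a log2 fold change over normal of 0.83 (SE 0.18) at 40 mg/kg, adjusted p = 0.0244, and 0.022 (SE 0.13) at 20 mg/kg, and the difference between the doses given above was not called by the quasi-likelihood test. Abcg1 (ENSRNOG00000001158) measured 23.8, 38.2, 21.8 and 31.6 CPM at 20 mg/kg and 21.9, 43.2, 58.4 and 38.9 at 40 mg/kg, with log2 fold changes of 0.90 (SE 0.28) and 1.40 (SE 0.33), adjusted p = 0.0969 and 0.0348. Replicate 1 at 40 mg/kg, the lowest of its group, was below normal replicate 2. The log2 difference of Abcg1 between the doses was 0.49 (SE 0.27), adjusted p = 0.961, with an approximate 95% interval of -0.040 to 1.03. Both calls were lost under 6 of 15 alternatives, with adjusted p up to 0.0775 for Abca1 and 0.099 for Abcg1. For both these were normal replicate 1, 3 or 4 or SIN (40 mg/kg) replicate 2 or 3 left out, with the fit of all 16 rats for Abca1 and SIN (40 mg/kg) replicate 4 left out for Abcg1. Nr1h3, which encodes the receptor, had 0.079 (SE 0.13) and -0.13 (SE 0.14).

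**Figure D5:**
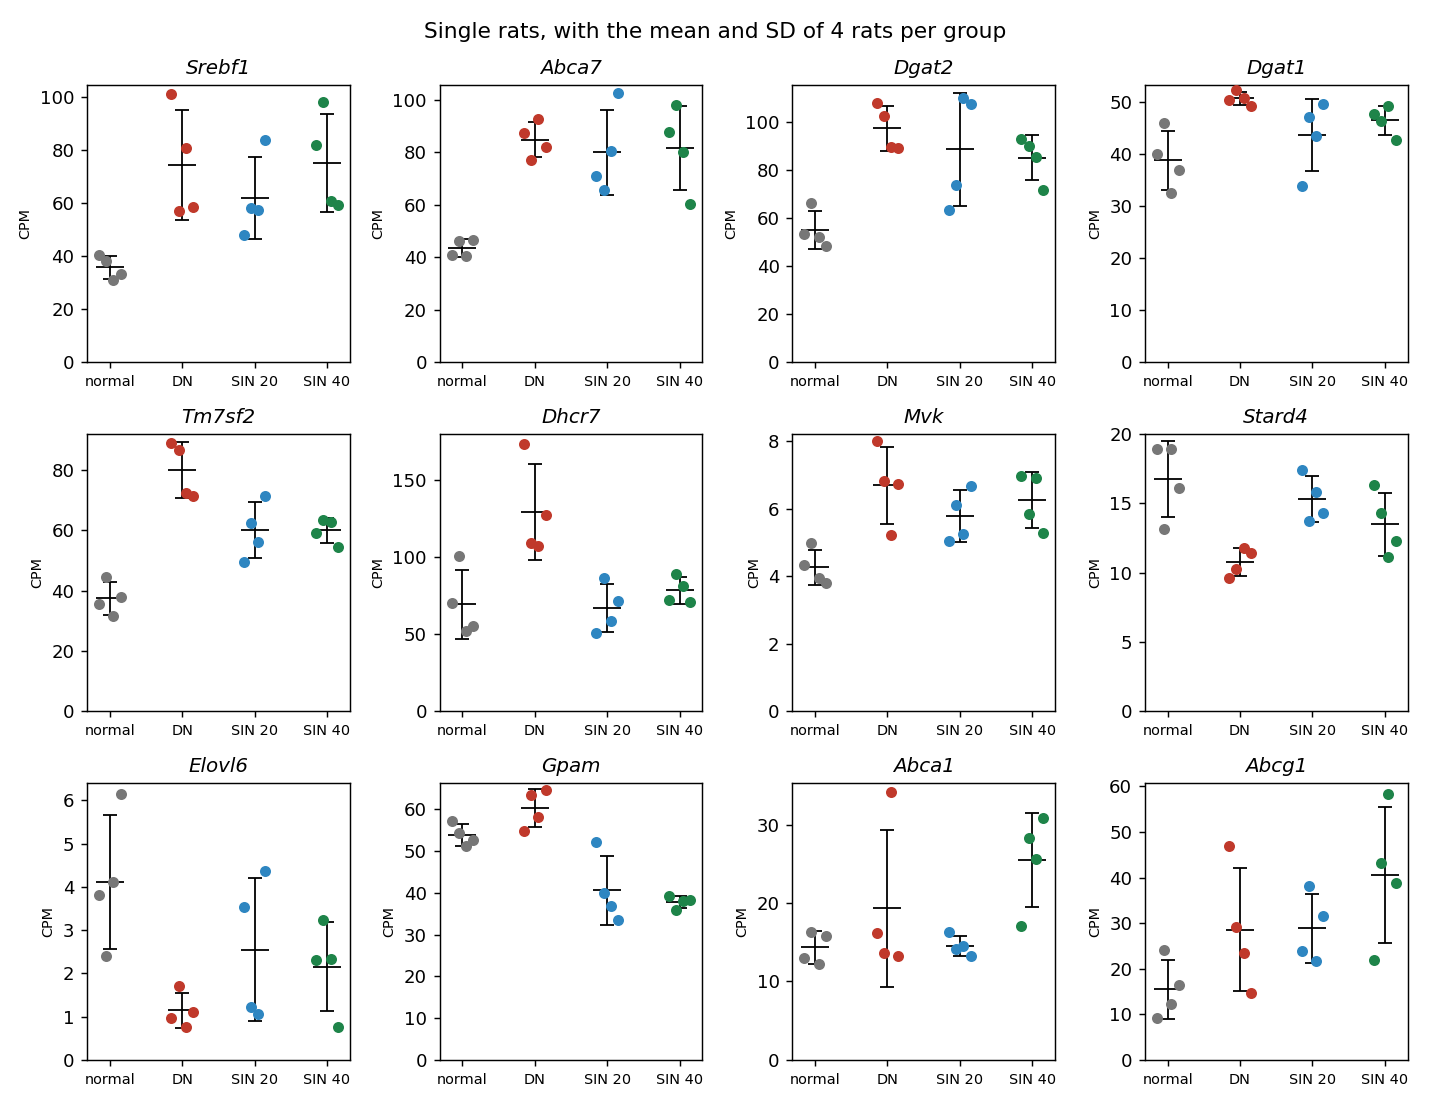
CPM (vertical axes, each starting at 0) of 12 members in single rats by group, with the mean and SD of 4 rats. Srebf1, Abca7 and Tm7sf2 lie above the normal rats in all 3 diabetic groups, Gpam lies below them at 40 mg/kg, and Dhcr7 is highest in the DN group.

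Other genes of the same routes numbered 26 in a list, of which 25 were in the table and tested. In DN against normal 4 rose and 2 fell, 6 of 25 beside the 19.5% of all genes. Agpat2, which adds the next acyl chain in glycerolipid synthesis, had a log2 fold change of 0.83 (SE 0.21) with adjusted p = 0.0284, and Nr1h2, which encodes LXR beta, had 0.33 (SE 0.087) with adjusted p = 0.0294. Elovl5, an elongase of polyunsaturated fatty acids, fell with -0.35 (SE 0.092) and adjusted p = 0.0291. Ggps1, which makes geranylgeranyl diphosphate, fell with -0.58 (SE 0.16) and adjusted p = 0.0342. Lpin2, a phosphatidate phosphatase, had 0.46 (SE 0.14) with adjusted p = 0.0414, and Scarb1, the receptor for high-density lipoprotein, was the other that rose. None of the 25 passed in either SIN group against DN. Elovl5 was lower than normal at both doses, -0.54 (SE 0.087) and -0.50 (SE 0.091) with adjusted p = 0.00652 and 0.0111. Plin2, the coat protein of lipid droplets in most tissues, was lower at 40 mg/kg, with -0.80 (SE 0.16) and adjusted p = 0.0189. Lpin2 and Agpat2 were higher than normal at 20 mg/kg, 0.92 (SE 0.071) and 0.62 (SE 0.15) with adjusted p = 2.63e-04 and 0.0352.

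The remaining members passed in no comparison. Acly, ATP citrate lyase, which makes cytosolic acetyl-CoA, had the smallest ratio of highest to lowest rat, from 92.0 to 120.4 CPM over all 16 rats, followed by Fdft1 from 110.3 to 162 and Insig1 from 19.9 to 29.7. Cyp51, the lanosterol demethylase, had group means of 18.8 ± 2.64, 18.5 ± 5.26, 19.5 ± 1.90 and 19.1 ± 3.48 CPM (SD, n = 4) in normal rats, DN rats and the rats at 20 and 40 mg/kg. Sqle, squalene epoxidase, had 16.3 ± 1.67, 15.7 ± 3.22, 16.4 ± 1.46 and 13.6 ± 2.73. Over all 16 rats, Nsdhl, a sterol dehydrogenase, ran from 16.8 to 25.6 CPM, Ebp, a sterol isomerase, from 19.5 to 29.96, Sc5d, a sterol desaturase, from 59.5 to 99.4, Lss from 30.8 to 60.9, Msmo1 from 28.0 to 46.7 and Hsd17b7 from 4.20 to 8.62. Of the isoprenoid enzymes Pmvk ran from 7.95 to 19.5 CPM, Mvd from 8.44 to 19.9 and Idi1 from 4.33 to 13.3. The desaturase Fads1 ran from 33.9 to 77.1 CPM and Fads2 from 55.3 to 125, while Acaca ran from 21.8 to 35.2 and Acacb, the acetyl-CoA carboxylase of mitochondria, from 34.0 to 91.9. Lpin1 ran from 10.8 to 18.2, Nr1h3 from 51.8 to 95.3 and Mylip from 24.1 to 44.7 CPM.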

How the data were processed

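Kidney RNA of 16 rats, 4 in each of 4 groups, was sequenced. The authors selected polyadenylated RNA with oligo(dT) beads, prepared TruSeq RNA libraries, sequenced them on a NovaSeq, used SeqPrep and Sickle for read trimming and TopHat for alignment to Rnor_6.0. The submitters' processing notes also name Bowtie, RSEM and edgeR, without roles or versions. The deposited values are estimated counts per gene (74.3% of nonzero values whole), rounded here. Whether counting used strand was not stated, so overlapping and antisense genes cannot be told apart, and the gene model behind the listed lengths is not given in the sources used here. Columns of 4 libraries that matched no sample record were not used. Groups came from the labels. Each pair of groups was fitted alone (8 rats) with edgeR 4.0.16 in R 4.3.3: TMM, filterByExpr, two-sided quasi-likelihood test and Benjamini-Hochberg adjustment over all genes tested, called at 0.05. SE is the log2 fold change over the square root of F. Nothing says more of the rats than that they are separate samples, so p-values measure the spread between them. Totals of 19616312 to 25217030 counts set the counting precision. Alternatives were DESeq2 1.42.0, the exact test, RLE scaling, no filter, at least 10 counts in every rat, all 16 rats in one fit, a replicate block and each rat left out. The procedure was tested on simulated data. All 41 members were named by level. Full statistics were given for called members up to 12, or the 5 smallest p where fewer than 5 were called, and for other pathway genes called, up to the 5 smallest p. Scarb1, Umod, Dbp, Arntl and further members were named after their values were seen. The members and lists were chosen with earlier results of these data known. Promoters came from RefSeq (GRCr8).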

Additional observations from a re-analysis of the deposited data

Results flagged for a closer look

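Of 164 sets of 4 rats (41 members in 4 groups), 8 held a rat that stood apart, the gap to its nearest neighbour being large beside the range of the set (Dixon's test at 95%). Chance gives about 1 in 20, and 8 of 164 is near that rate. All 8 were high. Acaca stood at 28.3 CPM in normal replicate 2 (the others 21.8 to 22.6) and at 33.0 in SIN (20 mg/kg) replicate 4 (the others 27.8 to 28.6). Scd2 stood at 124 CPM in the same SIN (20 mg/kg) replicate 4 (the others 66.9 to 76.5) and at 111 in SIN (40 mg/kg) replicate 2 (the others 79.6 to 83.4). Fasn stood at 89.9 CPM in DN replicate 1 (the others 62.7 to 65.0). Abca1 stood at 34.1 CPM in DN replicate 3 (the others 13.3 to 16.2), the DN rat with the highest Plin1. Over all 16 rats Plin1 was highest in SIN (40 mg/kg) replicate 1, at 13.1 CPM, and there Abca1, at 17.1 CPM, was the lowest of its group. A link between the 2 genes was not tested. In the SIN (40 mg/kg) group Acat2 stood at 26.6 CPM in replicate 1 (the others 21.4 to 22.2) and Idi1 at 9.66 in replicate 4 (the others 6.21 to 6.51). None of these members was called in a comparison that includes the group named for it here.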

How the results depend on the processing

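Of 540 recomputed log2 fold changes of named members, 473 kept their direction and side of the threshold, 50 lost the call, 17 gained one and 0 reversed. Counts of members called moved by more than 1.5 times in 17 of 90 recomputations. Left-out rats gave 5 to 11 members in DN against normal (9 in the main analysis), 1 to 7 in SIN (20 mg/kg) against normal (4) and 5 to 8 in SIN (40 mg/kg) against normal (7). DESeq2 called 3 in each SIN group against DN, 1 between the doses and 9 in SIN (20 mg/kg) against normal. The exact test called 1 and 2 in the lower and higher SIN group against DN and 8 in SIN (20 mg/kg) against normal, and the fit of all 16 rats called 1 in SIN (40 mg/kg) against DN. The cause was not tested. In DN against normal DESeq2 called 13, beside 28.3% of the genes it tested, the exact test 10 (21.5%) and the fit of all 16 rats 11 (22.4%). Medians over the members moved by less than the spread between rats in all 90 recomputations, though that of SIN (40 mg/kg) against DN lay between -0.10 and 0.061 when single rats were left out. Rats with the same replicate number share only the number: their deviations correlated at -0.24 to 0.24, and at most 2 of 4 correlated best with their own number. With the number as a block, 6 members were called in DN against normal, 4 and 7 in the lower and higher SIN group against normal and 0 in the other 3 comparisons. Depth limits Scd, with 4 to 85 counts per rat, and Elovl6, with 16 to 139.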
